A study of Mus musculus with 9 samples.

Results

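The genes described here were 45 genes of the interferon pathway and the interferon response, listed by name and all found in the GENCODE M21 annotation, which holds 21938 protein-coding genes among 55413 genes on the assembled nuclear chromosomes of mm10. They comprised 1 ligand (Ifnb1), 6 transcription factors, 8 nucleic acid sensors and kinases, 18 antiviral effectors, 7 ubiquitin and ADP-ribose enzymes, 2 chemokines and 3 genes of antigen processing. The rule that lists them used no measured value. A peak was assigned to a gene's promoter when it lay within 1 kb of any of its transcription start sites (TSSs), and to its locus when it lay in the gene body or within 10 kb on either side.

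Open chromatin had been profiled by ATAC-seq, a method that relies on the Tn5 transposase to put sequencing adapters into accessible DNA, in primary mouse embryonic fibroblasts (MEFs) at a passage below 8. Of 9 libraries, 3 came from WT MEFs, 3 from untransfected Anp32e null MEFs, which lack a histone chaperone that removes the variant H2A.Z from chromatin, 1 from Anp32e null MEFs given a pool of non-targeting siRNAs (NT siRNA) and 2 from Anp32e null MEFs given a pool of 4 siRNAs against H2A.Z (H2A.Z siRNA). Both siRNA groups therefore carried the Anp32e deletion of the null group and differed from it by lipid transfection as well as by the siRNA, and no siRNA library came from WT MEFs. The libraries of a group had been merged before peak calling, so each group was 1 peak list, no value had a replicate and no significance test was possible, and intervals below are 95% intervals that cover counting error for fragments, heights and shares, and the spread between genes or sites for medians, and never variation between cultures.

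Interferons are secreted proteins through which a cell that detects foreign nucleic acid alerts itself and its neighbours. Sensors of RNA and DNA activate IRF3 and IRF7, which switch on the gene for interferon beta. Interferon beta then acts through its receptor and Janus kinases on a complex that contains STAT2 and IRF9, which binds the interferon-stimulated response element (ISRE) in the promoters of antiviral genes. In fibroblasts many of these genes have a low basal level and respond strongly to infection.

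The 4 lists held 82567 to 108409 peaks. The fragments expected by chance at a genomic position, a measure of depth, numbered 8.85 in WT and 5.12 in null, with 3.88 under NT siRNA and 17.82 under H2A.Z siRNA, so the lists were compared by rank. The rank of a peak is its percentile by fold enrichment at the summit within its own list, from 0 to 100, and the strongest promoter peak stood for a gene. Fibroblast marker genes had a promoter peak in 11 of 12 cases in each list (Lum had none), whereas Ptprc, Adgre1, Cd3e, Itgam and Cd52 of 10 leukocyte markers had none in any list, and the number of leukocyte markers with a peak was 3, 3, 4 and 5 in WT, null, NT siRNA and H2A.Z siRNA. Promoter peaks were found at 3, 3, 5 and 5 of 5 epithelial markers and at 4, 3, 4 and 4 of 5 endothelial markers, and the part of other cells in the results below was not tested. The promoter of Anp32e itself had a peak in every list, at percentiles 80.8, 84.8, 86.3 and 86.2, so its accessibility did not check the null label.

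To see what the promoters share in sequence, the core of the ISRE, GAAA followed by any 2 bases and GAAA, was searched on either strand from 250 bases before to 50 bases after the start in RefSeq promoters of GRCm38.p6. RefSeq promoters were matched for 35 of the 45 genes. A core was present in 14 of these 35 genes (40%), against 3.98% of all 26994 genes with such a promoter and 3.43% of 32817 promoters. The STAT core TTCNNNGAA was present in 8 of 35 (22.9%), against 9.55% of all genes. Gbp2, Gbp3, Ifih1, Trim21 and Eif2ak2 also had a peak in all 4 lists with a core inside it and are not printed. The following stretches are shown because their genes had a weak, variable or absent promoter peak (Isg15, Oas3, Ifit1, Ifit3, Rsad2) or a peak in all 4 lists with the core inside it (Bst2, Cxcl10, Stat2). They are printed 5′ to 3′ on the strand of the gene, with every base of a core match in capitals, and a core on the opposite strand reads TTTC, 2 bases, TTTC. A match of these letters is a description and does not show that a factor binds there.
Isg15, chr4:156200855-156200916, minus strand: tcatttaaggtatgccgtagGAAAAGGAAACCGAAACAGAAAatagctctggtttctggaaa
Oas3, chr5:120777705-120777754, minus strand: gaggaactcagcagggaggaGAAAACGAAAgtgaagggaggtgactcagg
Ifit1, chr19:34640765-34640833, plus strand: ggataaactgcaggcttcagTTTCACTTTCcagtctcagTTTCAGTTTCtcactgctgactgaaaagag
Ifit3, chr19:34583353-34583436, plus strand: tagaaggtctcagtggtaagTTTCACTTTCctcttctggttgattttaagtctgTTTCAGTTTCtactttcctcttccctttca
Rsad2, chr12:26456543-26456592, minus strand: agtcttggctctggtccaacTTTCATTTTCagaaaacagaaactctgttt
Bst2, chr8:71537567-71537622, minus strand: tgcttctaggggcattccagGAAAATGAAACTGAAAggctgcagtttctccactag
Cxcl10, chr5:92349073-92349122, minus strand: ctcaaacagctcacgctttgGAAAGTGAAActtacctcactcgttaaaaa
Stat2, chr10:128270256-128270305, plus strand: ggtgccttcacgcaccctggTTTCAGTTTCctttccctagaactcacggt

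Isg15 had 3 overlapping cores, Ifit1, Ifit3 and Bst2 had 2 each, and the other genes shown had 1. Among genes with both a core and a promoter peak, the core lay inside the strongest promoter peak in 11 of 13 genes in WT, 11 of 13 in null, 12 of 12 in NT siRNA and 11 of 13 in H2A.Z siRNA. The Oas3 core lay outside its peak in each of the 3 lists that had one. The remaining exceptions were Ifit3 in WT, Ddx58 in null and Rsad2 in H2A.Z siRNA. Within 201 bp centred on the summit, a core was found in 9 of 38 genes in WT (23.7%, Wilson interval 13 to 39.2%), 9 of 39 in null, 10 of 40 in NT siRNA and 10 of 39 in H2A.Z siRNA, against 1.34 to 1.53% of protein-coding genes with a promoter peak. The same windows had a median GC content of 55.7 to 57.7%, lower than the 63.7 to 64.7% of all protein-coding genes with a promoter peak.

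To ask which interferon promoters were accessible without infection, promoter peaks were counted in each list. Most of the 45 promoters carried a peak in every list: 38 of 45 in WT (84.4%, Wilson interval 71.2 to 92.3%), where 67.2% of protein-coding genes had one, 39 in null (86.7%), where 66.7% had one, 40 in NT siRNA (88.9%), where 66.8% had one, and 39 in H2A.Z siRNA (86.7%), where 68.4% had one. A peak was present in all 4 lists for 37 genes, in some lists for 4 genes (Oasl2, Oas3, Ifnb1 and Oasl1) and in no list for 4 genes (Oas2, Isg15, Ifi44 and Ccl5). The genes with a peak were close to other genes in rank. Their median percentile was 79.2 in WT and 77.5 in null, with 78.4 under NT siRNA and 80.2 under H2A.Z siRNA, against 81.7, 80.0, 79.5 and 81.5 for all protein-coding genes with a promoter peak. Their summits were supported by a median of 120 fragments in WT (range 33 to 274), 104 in null (range 22 to 308), 139.5 in NT siRNA (range 18 to 565) and 464 in H2A.Z siRNA (range 78 to 1800). Dtx3l and Parp9, which start from a common region, shared 1 promoter peak in every list, as did Psmb9 and Tap1, so the 38 to 40 genes stood for 36 to 38 distinct peaks.

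**Figure D1:**
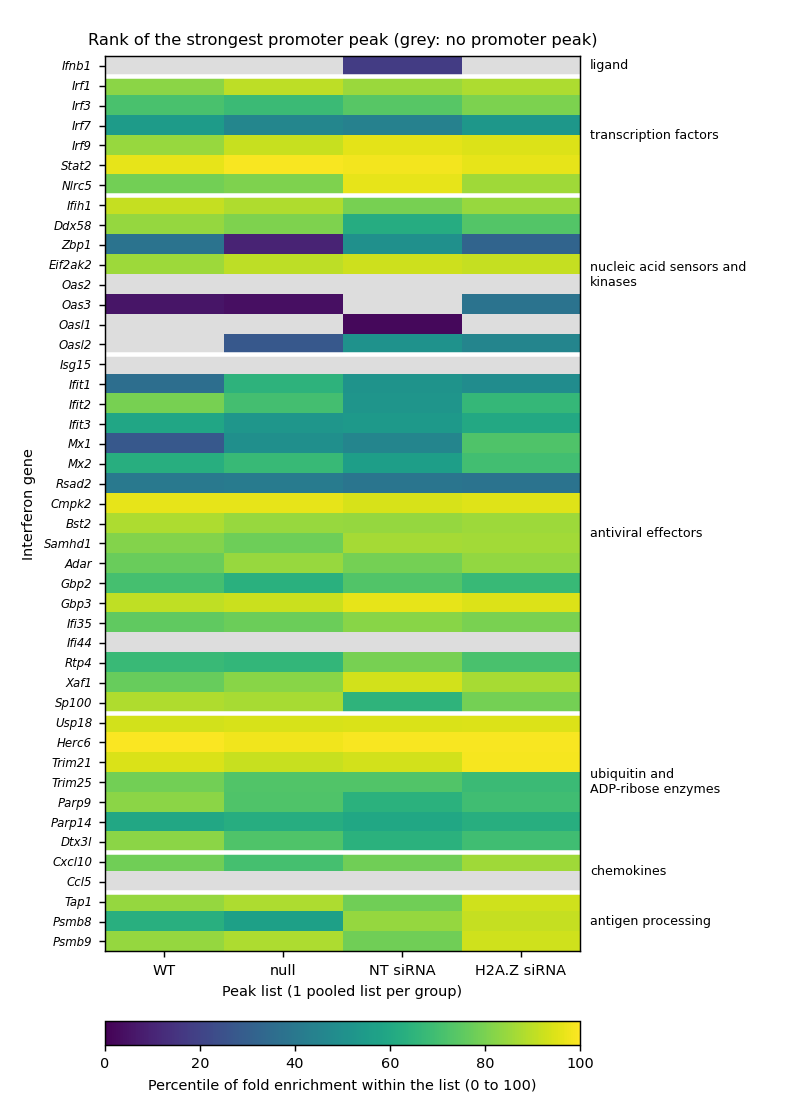
Percentile of fold enrichment within the list (colour, 0 to 100) of the strongest promoter peak of each of the 45 interferon genes (vertical axis, grouped by role) in each of the 4 peak lists (horizontal axis), with grey where no promoter peak was called. Oas2, Isg15, Ifi44 and Ccl5 are grey in all 4 lists, and Herc6 ranks between 97.9 and 99.5.

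The ligand gene Ifnb1, which encodes interferon beta, had no promoter peak in WT, null or H2A.Z siRNA. Its nearest peak in these lists lay 6352, 6560 and 6251 bp from the TSS and ranked at 81.5, 88.5 and 80.2. In NT siRNA a peak of 278 bp at chr4:88523245-88523522 had its summit at -658 bp from the TSS. That peak rested on 18 fragments (exact Poisson interval 10.7 to 28.4) and ranked at 17.6.

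All 6 transcription factor genes had a promoter peak in every list, and their median percentile was 80.8 in WT and 85.2 in null, with 90.5 under NT siRNA and 86.8 under H2A.Z siRNA. Stat2, a subunit of the complex that reads the ISRE, was the strongest of them in every list, at 96.3 in WT and 98.8 in null, with 98.1 under NT siRNA and 96.3 under H2A.Z siRNA. Irf9, the DNA-binding subunit of the same complex, ranked at 84.6, 91.4, 96.0 and 94.8. Irf7, which amplifies interferon production, was the weakest in every list, at 54.9, 45.9, 43.8 and 52.8. Irf3, which is activated by the sensors and starts interferon production, ranked at 71.3, 68.3, 74 and 80.2, and Irf1, which is itself induced by interferon, at 82.8, 90.0, 84.9 and 87.6. Nlrc5, the transactivator of MHC class I genes, stood at 78.7 in WT and 80.5 in null, and higher in NT siRNA (96.2) than in H2A.Z siRNA (85.9).

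The sensors and kinases were the most divided group. Ifih1 and Ddx58, the helicases that detect cytoplasmic viral RNA, ranked at 91.1 and 84.2 in WT, 88.1 and 80.8 in null, 79.3 and 61.9 in NT siRNA, and 84.7 and 73.1 in H2A.Z siRNA. Both were lowest in NT siRNA. Eif2ak2, the kinase PKR that halts translation on viral RNA, stayed between 85.5 and 92.4. Zbp1, a sensor of left-handed nucleic acid, had a weak peak with its summit between -799 and -892 bp from its TSS, at percentiles of 37.9 in WT and 9.96 in null, with 50.1 under NT siRNA and 32.1 under H2A.Z siRNA.

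The genes of the oligoadenylate synthetase family, whose active members make the messenger that activates RNase L, were at the lower end or without a peak where they belonged to the 45. Outside the 45, Oas1b ranked at 88.7, 90.4, 94.1 and 90.7, whereas Oas1g had no promoter peak in any list. Oas1a had one in WT only, at 23.5 on 27 fragments. Oas2 (chr5:120730333-120749853) had no promoter peak in any list, and no peak at all in its locus in null and NT siRNA. Oas3 had a low peak downstream of its start, 303 bp wide in WT, 375 bp in null and 1415 bp in H2A.Z siRNA, with a summit 1133 to 1743 bp away from the nearest TSS, ranked at 5.65 in WT, 4.08 in null and 37.9 in H2A.Z siRNA. In NT siRNA the nearest Oas3 peak, at percentile 0.813, lay 1722 bp from the TSS and was not counted. With promoters of 500 bp on either side, Oas3 had no promoter peak in any list.

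Oasl1 and Oasl2 are relatives of the synthetases that neighbour each other on chromosome 5. Oasl1 had a promoter peak in NT siRNA only, with 28 fragments (18.6 to 40.5) and percentile 2.14. Oasl2 had no peak in its locus in WT. In null a peak of 252 bp at chr5:114897581-114897832 had its summit at -2 bp from an annotated TSS, with 22 fragments (13.8 to 33.3) and percentile 27.7. The same place carried a peak in NT siRNA, at percentile 45.6 with 31 fragments, and in H2A.Z siRNA, at 36.4 with 75 fragments. In both siRNA lists a second Oasl2 peak, at an internal TSS farther downstream, was stronger, at 50.8 and 45.4, and therefore stood for the gene there.

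The 18 antiviral effectors included 16 with a promoter peak in every list, whose median percentile was 76.2 in WT and 73.8 in null, with 76.0 under NT siRNA and 75.7 under H2A.Z siRNA. The strongest were Cmpk2, a mitochondrial nucleotide kinase (94.1 to 96.2), and Gbp3, a GTPase that attacks pathogen vacuoles (90.3 to 96.5). Bst2, the tetherin that holds budding virus at the cell surface, ranked between 84.2 and 87.7. Samhd1, which depletes nucleotides needed for reverse transcription, ranked between 77.8 and 86.6, and Adar, which edits double-stranded RNA, at 77.0, 84.6, 79.2 and 83.6. The strongest Adar, Sp100 and Rtp4 peaks lay at internal TSSs and not at the 5′ end of the gene as annotated. Xaf1, Ifi35, Gbp2, Rtp4 and Mx2 ranked between 56.0 and 93.1 in all lists.

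Rsad2, which encodes the antiviral enzyme viperin, was weak in all lists, at 40.4, 41.5, 38.7 and 38.3, on 38, 28, 27 and 78 fragments. In H2A.Z siRNA its strongest promoter peak was a different one, at an internal TSS (chr12:26454774-26455096), and did not overlap those of the other lists.

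The Ifit genes, whose products bind viral RNA lacking host cap marks, differed among themselves. Ifit1 ranked at 36.1 in WT on 33 fragments, 64.5 in null on 53, 51.5 in NT siRNA on 58 and 48.5 in H2A.Z siRNA on 136. Ifit2 ranked at 79.6, 70.2, 52.0 and 66.6, and Ifit3 at 59.1, 52.5, 53.8 and 60.2. So WT had the lowest rank of Ifit1 and the highest of Ifit2. Of the 31-base sequences in the Ifit3 promoter window, 63.9% occur more than once in the genome, the highest share among the 45 genes, so reads there may have been placed at a near-identical copy. That share was 21% for Sp100 and at most 12.1% for the other genes.

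Isg15, the ubiquitin-like modifier that is among the best known interferon-induced genes, had no promoter peak in any list, in spite of the 3 cores printed above. Its nearest peak lay 2077 bp from its TSS in WT, null and NT siRNA, and in H2A.Z siRNA it lay at 1999 bp. That peak was of middling rank, at 61.9, 62.3, 55.7 and 61.4. Ifi44 also had none, and its nearest peak lay 5554 bp away in WT and 5595 bp in null, and 12307 bp away under NT siRNA and 5636 bp under H2A.Z siRNA. An absent call means that no region passed the threshold of the peak caller, a q-value of 0.05, at the depth of that list, and not that the promoter was closed.

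The 7 ubiquitin and ADP-ribose enzyme genes all had a promoter peak in every list. Herc6, the ligase that attaches ISG15 to its substrates in mouse, was the strongest of the 45 genes in WT, NT siRNA and H2A.Z siRNA, at 99.5, 99.1 and 99, and ranked at 97.9 in null. Usp18, which removes ISG15 and restrains receptor signalling, ranked at 93.0 to 94.6, and Trim21, an intracellular antibody receptor, at 91.7 to 98.5. Trim25, a ligase that promotes RNA sensing, ranked at 68.3 to 78.8 and Parp14, an ADP-ribosyltransferase, at 59.8 to 62.9. The promoter peak shared by Dtx3l and Parp9, whose products form a complex, ranked at 82.7 in WT and 72.4 in null, with 63.7 under NT siRNA and 69.4 under H2A.Z siRNA.

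Of the chemokine genes, Cxcl10, which attracts activated T cells, ranked at 78.3 in WT and 70.4 in null, with 78.4 under NT siRNA and 85.6 under H2A.Z siRNA. Ccl5 had no promoter peak in any list. Its nearest peak lay 3824 bp from the TSS in WT and 3898 bp in null, at percentiles of 89.5 and 88.3, and a weaker peak 2087 bp away under NT siRNA and 2041 bp away under H2A.Z siRNA ranked at 12.2 and 34.5.

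In the antigen processing group, the promoter peak shared by Tap1, a subunit of the peptide transporter, and Psmb9, an immunoproteasome subunit, ranked at 84.2 in WT and 87.6 in null, with 78.4 under NT siRNA and 92.7 under H2A.Z siRNA. Psmb8, the adjacent immunoproteasome gene, ranked at 63.0 in WT on 81 fragments and 56.9 in null on 54, and at 84.2 in NT siRNA on 101 and 91.0 in H2A.Z siRNA on 421. Psmb8 thus stood higher in both siRNA lists than in both untransfected lists.

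To ask how interferon promoters differed upon loss of ANP32E, null was compared with WT. Oasl2 was the only gene of the 45 with a promoter peak in null and none in WT, where 1.4% of protein-coding genes gained a call. No gene lost its peak, where 1.89% of protein-coding genes did. Over the 38 genes with a peak in both lists, the rank in null minus that in WT had a median of -1.42 points (interval -3.32 to 1.84), beside -1.36 points over 14317 protein-coding genes, and 18 of 38 genes ranked higher in null, where 37.6% of protein-coding genes did. The median of the interferon promoters was thus close to that of all promoters.

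Only 5 of these 38 genes moved by 10 points or more. Ifit1 (28.4 points) and Mx1 (22.1 points) ranked higher in null, 2 of 38 genes where 6.52% of protein-coding genes did so. Zbp1 ranked lower by -27.9 points, and the peak of Dtx3l and Parp9 by -10.3 points, 3 of 38 genes where 11.1% of protein-coding genes did so. After these, the next highest changes were those of Adar (7.53 points) and Irf1 (7.15 points), and the next lowest that of Ifit2 (-9.37 points).

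The heights behind these ranks were compared as fragments at the summit over the background of the list, divided by the median of that ratio over protein-coding genes, which was 1.56 for null against WT. Ifit1 was 1.77 times as high in null by this measure (exact interval 1.13 to 2.83). Mx1 was 1.56 times as high (0.985 to 2.5), an interval that included no difference, and Mx2, a paralog of Mx1, was 1.64 times as high (1.28 to 2.11). Zbp1 was 0.599 times as high (0.407 to 0.871), and Irf7 0.6 times (0.418 to 0.852). In all, the interval lay above no difference for 4 of 38 genes (Eif2ak2, Ifit1, Mx2 and Stat2), where it did for 13% of protein-coding genes, and below it for 5 (Bst2, Irf3, Irf7, Trim21 and Zbp1), where it did for 9.68%. The Dtx3l and Parp9 peak was 1.06 times as high (0.838 to 1.33), so its lower rank did not come with a lower summit on this scale. These intervals hold no variation between cultures.

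Mx1, a dynamin-like GTPase that blocks viral nucleocapsids, had a promoter peak upstream of an internal TSS in every list (chr16:97461156-97461741 in WT), at 27.6, 49.7, 45.5 and 72.5 on 34, 48, 31 and 174 fragments. A separate peak with its summit upstream of the 5′ end of the gene, at -158 bp in null, was present in null (chr16:97462918-97463273, percentile 20.2 on 30 fragments), in NT siRNA (27.1 on 24 fragments) and in H2A.Z siRNA (27.0 on 66 fragments), and absent from WT. When the promoter peak nearest to a TSS stood for the gene, the value for Mx1 was -7.43 points, which sets the internal peak of WT against the upstream peak of null and so compares different sites. Read site by site, the internal peak ranked higher in null and the upstream peak was called in null alone of the 2 lists.

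Counting every promoter peak and not only the strongest, which was added after the values had been seen, 4 of 45 genes (Mx1, Oasl2, Usp18 and Zbp1) had a null peak that no WT peak overlapped, against 5.08% of protein-coding genes. None of the 45 had a WT peak that no null peak overlapped, against 5.6% of protein-coding genes. The Usp18 and Zbp1 peaks were small, at percentiles of 43.0 and 6.56 on 28 and 31 fragments, and lay at internal TSSs or downstream of the start.

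**Figure D2:**
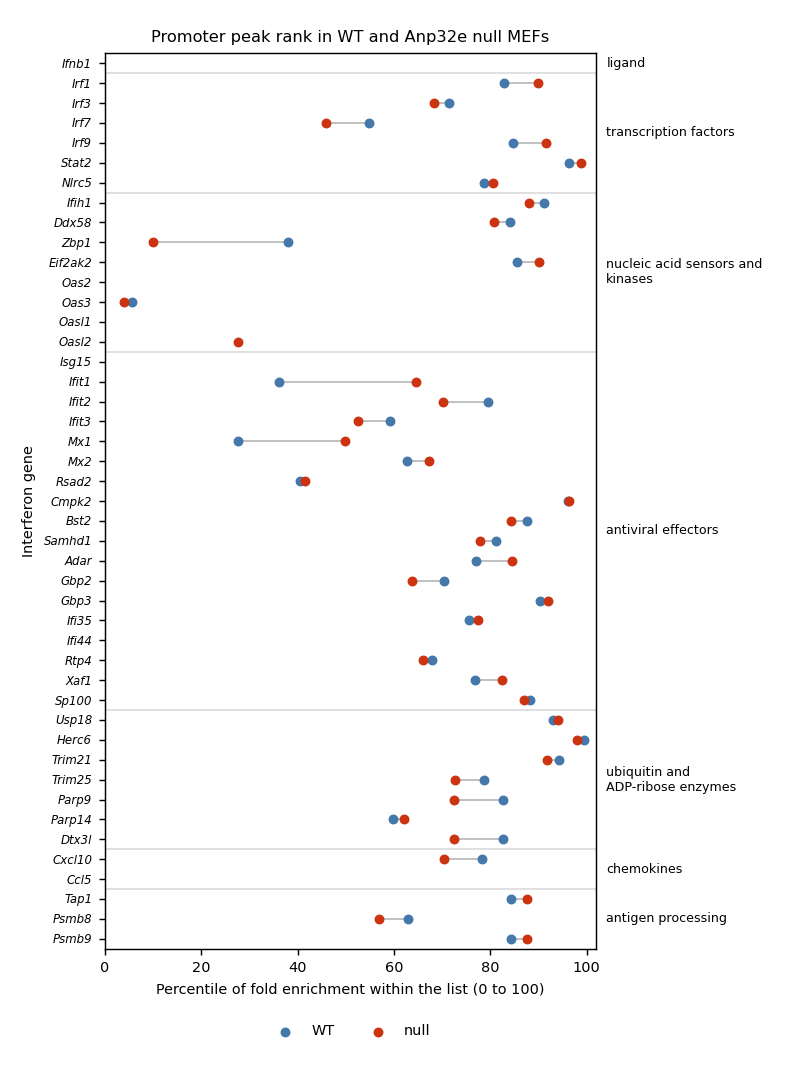
Percentile of fold enrichment within the list (horizontal axis, 0 to 100) of the strongest promoter peak of each interferon gene (vertical axis, grouped by role) in WT and in Anp32e null MEFs, with 1 pooled list per group and a line joining the 2 points of a gene. Most pairs lie close together, and the widest gaps are those of Ifit1 (36.1 and 64.5), Zbp1 (37.9 and 9.96) and Mx1 (27.6 and 49.7).

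Promoter peaks of the interferon genes had median widths of 997.5, 944, 884 and 1208 bp in the 4 lists, in the order WT, null, NT siRNA and H2A.Z siRNA, against 1149, 1116, 1083 and 1294.5 bp for all protein-coding genes with a promoter peak. Between WT and null, 27 of 38 peaks were narrower in null and 11 were wider, with a median difference of -50 bp (interval -78 to -5), beside -23 bp over protein-coding genes, of which 59.1% were narrower. The largest differences were those of Parp14 (776 bp in WT, 1517 bp in null) and Gbp2 (1471 and 2060 bp), which had 2 promoter peaks in WT and 1 in null, and of Ifit3 (1001 and 634 bp).

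To ask how the same promoters looked after siRNA transfection, each siRNA list was set against untransfected null MEFs. Both comparisons share the null list, so a value that is unusual in null enters both. In NT siRNA, Ifnb1 and Oasl1 gained a promoter call, 2 of 45 genes where 2.03% of protein-coding genes did, and Oas3 lost its call, 1 of 45 genes where 1.85% did. The median rank change over 38 genes was 0.0153 points (-4.29 to 4.53), beside -0.523 points over 14219 protein-coding genes, and 19 of 38 genes ranked higher, where 46.1% of protein-coding genes did.

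The 6 genes that ranked higher in NT siRNA than in null by 10 points or more, 6 of 38 where 13.5% of protein-coding genes did so, were Zbp1 (40.2 points), Psmb8 (27.3 points), Oasl2 (23.1 points), Nlrc5 (15.7 points), Rtp4 (13.5 points) and Xaf1 (10.8 points). The change of Rtp4 is that of its peak at an internal TSS, and the peak at the annotated 5′ end ranked at 43.9 in null and 43.6 in NT siRNA. Rtp4 is a receptor chaperone and Xaf1 a pro-apoptotic protein, both induced by interferon. The strongest Oasl2 peaks of the 2 lists did not overlap, so its change compares different sites. The 5 genes that ranked lower, 5 of 38 where 12.3% did so, were Sp100 (-21.7 points), Ddx58 (-18.9 points), Ifit2 (-18.2 points), Ifit1 (-13.0 points) and Mx2 (-11.3 points). Sp100 encodes a component of nuclear bodies that restrict viral DNA, and its peak had 98 fragments in null and 45 in NT siRNA.

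In H2A.Z siRNA no gene gained a call against null, where 3.3% of protein-coding genes did, and no gene lost one, where 1.54% did. The median rank change over 39 genes was 2.45 points (-0.948 to 5.15), beside 1.40 points over 14287 protein-coding genes, and 26 of 39 genes ranked higher, where 60.4% of protein-coding genes did. The H2A.Z siRNA list was the longest, and the direction depended on list length. With the 82567 strongest peaks of each list, the median change turned to -3.75 points (-6.38 to 0.947), beside -2.49 points over protein-coding genes.

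By 10 points or more, 7 of 39 genes ranked higher in H2A.Z siRNA than in null, where 18.6% of protein-coding genes did so. They were Psmb8 (34.1 points), Oas3 (33.8 points), Mx1 (22.8 points), Zbp1 (22.2 points), Oasl2 (17.7 points, different sites), Cxcl10 (15.2 points) and Irf3 (11.8 points). The Oas3 peak was 375 bp wide in null and 1415 bp in H2A.Z siRNA, so the wider peak also took in a stronger summit farther downstream. Ifit1 alone ranked lower by as much (-16.0 points), 1 of 39 where 5.22% of protein-coding genes did so. With equal numbers of peaks, the counts were 4 higher and 9 lower, beside 8.48% and 20.8% of protein-coding genes.

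Set side by side, Psmb8 and Zbp1 ranked at least 10 points higher than in null in both siRNA lists, and Ifit1 at least 10 points lower. The share of protein-coding genes that did so in both lists was not counted. The null list enters both comparisons, and Ifit1 and Zbp1 were the genes whose null rank lay farthest from WT (28.4 and -27.9 points). At the Oasl2 site called in all 3 lists the ranks were 27.7 in null, 45.6 under NT siRNA and 36.4 under H2A.Z siRNA. Mx1 ranked at 49.7 in null, 45.5 under NT siRNA and 72.5 under H2A.Z siRNA, and Sp100 at 86.9, 65.2 and 78.9, after 88.2 in WT. Rank and height differed in direction for some of these genes. In height relative to all genes, Mx1 stood at 0.401 times its null value in NT siRNA (0.247 to 0.643) and 0.599 times in H2A.Z siRNA (0.433 to 0.842). Zbp1 stood at 1.28 times (0.889 to 1.87) and 0.675 times (0.485 to 0.958), and Psmb8 at 1.16 times (0.826 to 1.65) and 1.29 times (0.968 to 1.74). On the same scale Irf3 stood at 2.16 times its null value in NT siRNA (1.73 to 2.73) and 2.67 times in H2A.Z siRNA (2.18 to 3.3). Ifi35 stood at 2.38 times (1.77 to 3.23) and 2.29 times (1.76 to 3.05), and Samhd1 at 1.90 times (1.52 to 2.39) and 1.89 times (1.55 to 2.33).

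Other peaks were lower on the same scale in both siRNA lists. Cmpk2 stood at 0.476 times its null value (0.385 to 0.587) and 0.273 times (0.229 to 0.326), Herc6 at 0.615 times (0.511 to 0.741) and 0.47 times (0.404 to 0.547), and Sp100 at 0.285 times (0.196 to 0.41) and 0.334 times (0.261 to 0.43). Before the division by the median of protein-coding genes, Cmpk2 stood at 1.01 times its null value in NT siRNA and 0.475 times in H2A.Z siRNA. Herc6 then stood at 1.31 and 0.817 times, and Sp100 at 0.606 and 0.58 times. Cmpk2 and Herc6 kept their ranks above 94. The 6 genes from Irf3 to Sp100 were picked from the 45 after their heights had been seen. In all, the height interval lay above no difference for 6 of 38 genes in NT siRNA and 7 of 39 in H2A.Z siRNA, where it did for 34.2% and 37% of protein-coding genes, and below it for 10 and 21 genes, where it did for 32.5% and 36.7%. Effects of transfection, siRNA, culture and depth on these values cannot be told apart, since untransfected and transfected libraries differed in all of them.

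**Figure D3:**
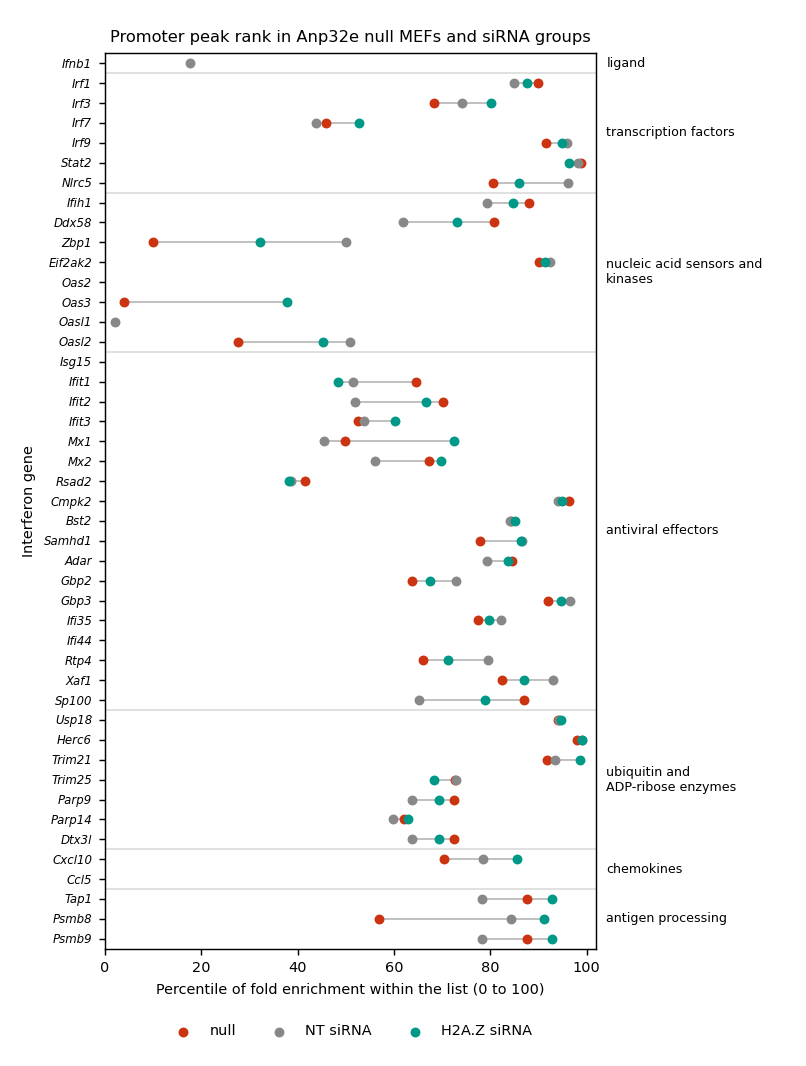
Percentile of fold enrichment within the list (horizontal axis, 0 to 100) of the strongest promoter peak of each interferon gene (vertical axis, grouped by role) in untransfected Anp32e null MEFs and in Anp32e null MEFs with NT siRNA or H2A.Z siRNA, with 1 pooled list per group. Psmb8 and Zbp1 stand higher in both siRNA lists than in null and Ifit1 lower, while Mx1 is set apart by its rank of 72.5 in H2A.Z siRNA, where its height relative to all genes was 0.599 times that in null. Both comparisons share the null list, where Zbp1 and Ifit1 lay farthest from their WT ranks.

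H2A.Z siRNA and NT siRNA were also compared directly, since both groups were transfected. Oas3 had a promoter peak in H2A.Z siRNA only, 1 of 45 genes where 2.06% of protein-coding genes gained a call. Ifnb1 and Oasl1 had one in NT siRNA only, 2 of 45 genes where 0.483% lost a call, and these peaks of 18 and 28 fragments ranked at 17.6 and 2.14 in the NT siRNA list. Higher by 10 points or more in H2A.Z siRNA were Mx1 (27.1 points), Ifit2 (14.6 points), the peak of Psmb9 and Tap1 (14.4 points), Sp100 and Mx2 (13.7 points each) and Ddx58 (11.2 points), 7 of 38 genes where 14.1% of protein-coding genes were. Zbp1 (-18.0 points) and Nlrc5 (-10.3 points) were lower, 2 of 38 where 2.56% were. In height, divided by the protein-coding median ratio of 0.807, the interval lay above no difference for 5 of 38 genes, where it did for 20.1% of protein-coding genes. It lay below no difference for 13 of 38, where it did for 18.7%. The median rank change was 1.86 points (-1.1 to 5.7), beside 2.08 points over 14559 protein-coding genes. Here too the direction depended on list length. With equal numbers of peaks the median was -1.09 points (-3.25 to 0.929), beside -0.963 points, and 3 genes ranked higher and 8 lower, beside 4.93% and 10.96% of protein-coding genes. With the nearest promoter peak the Mx1 change was -0.0705 points, because the peak upstream of the gene ranked almost equally in both lists. The backgrounds of the lists were 17.82 and 3.88 fragments, and the NT siRNA list rested on a single library.

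The H2A.Z siRNA list, the deepest of the 4, also had the widest promoter peaks. Against null, the interferon promoter peaks were narrower in NT siRNA by a median of -24.5 bp (-55 to 37), beside -26 bp over protein-coding genes, and wider in H2A.Z siRNA by 106 bp (47 to 185), beside 117 bp. In H2A.Z siRNA 32 of 39 peaks were wider than in null, where 82.2% of protein-coding promoter peaks were. Against NT siRNA the median difference was 132 bp (58 to 232), beside 151 bp. When widths were replaced by percentiles within each list, the median differences were -0.544, 0.383, -1.38 and -1.64 points for null against WT, NT siRNA against null, H2A.Z siRNA against null and H2A.Z siRNA against NT siRNA. Single genes moved farther, such as Parp14, from the width percentile 68.6 in WT to 96.2 in null, and Oas3, from 26.3 in null to 90.8 in H2A.Z siRNA.

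**Figure D4:**
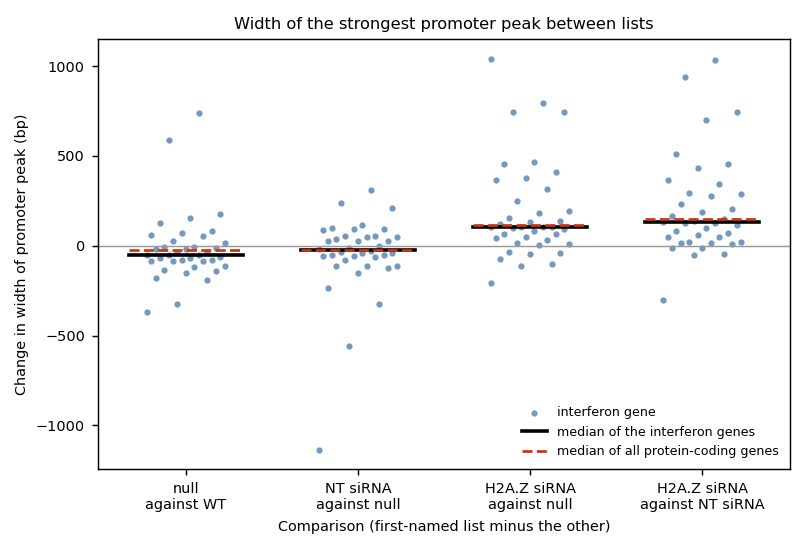
Change in width of the strongest promoter peak in bp (vertical axis, first-named list minus the other) for each comparison (horizontal axis), with 1 point per interferon gene, a black line at their median and a dashed line at the median of all protein-coding genes. In the comparisons with H2A.Z siRNA the black lines lie at 106 and 132 bp, close to the dashed lines at 117 and 151 bp.

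Additional peaks of each promoter were read against null in the same way as for WT. In NT siRNA, 5 of 45 genes (Ifnb1, Irf3, Oasl1, Oasl2 and Rtp4) had a promoter peak that no null peak overlapped, against 7.54% of protein-coding genes, and 3 genes (Oas3, Usp18 and Zbp1) had a null peak that no NT siRNA peak overlapped, against 4.55%. In H2A.Z siRNA the former held for 2 genes (Nlrc5 and Oasl2), against 12.7% of protein-coding genes, and the latter for Zbp1 alone, against 2.77%. With equal numbers of peaks the former held for Oasl2 alone, against 4.75%, and the latter for Irf3 and Zbp1, against 6.95%.

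The loci of the 45 genes, which together spanned 1797.72 kb, held 124 distinct peaks in WT, 131 in null, 136 under NT siRNA and 161 under H2A.Z siRNA. These peaks covered 5.19%, 5.2%, 5.18% and 7.63% of the loci. At least 1 peak was present in the loci of 44 genes in WT (all but Oasl2), 44 in null (all but Oas2), 43 in NT siRNA (all but Oas2 and Ifi44) and all 45 in H2A.Z siRNA, against 79.3 to 81.1% of protein-coding loci. Nlrc5 had 8, 7, 10 and 11 peaks, and Rtp4 had 4, 7, 10 and 10. Of the peaks in the loci, 42, 45, 48 and 47 lay at promoters of the 45 genes, 23, 24, 21 and 27 at promoters of other genes, and 59, 62, 67 and 87 elsewhere. Within these loci, most of the surplus in H2A.Z siRNA thus lay outside promoters. The whole lists also differed in length, with 84040, 82567, 89272 and 108409 peaks. Their split by position is not given here, so the surplus cannot be read as particular to these loci.

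**Figure D5:**
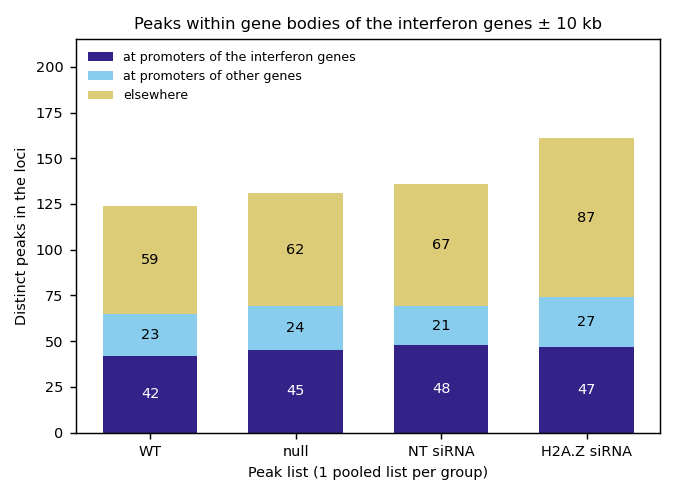
Number of distinct peaks (vertical axis) in the gene bodies of the 45 interferon genes with 10 kb on either side, in each peak list (horizontal axis), stacked by position at promoters of these genes, at promoters of other genes or elsewhere. Peaks at the promoters of the 45 genes number 42 to 48 in every list, whereas peaks elsewhere number 59 to 67 in WT, null and NT siRNA and 87 in H2A.Z siRNA.

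Of the WT peaks in these loci, 89.5% overlapped a null peak (Wilson interval 82.9 to 93.8%), beside 82.0% of WT peaks in the loci of all protein-coding genes, and 84.0% of null peaks had a WT peak in overlap (76.7 to 89.3%), beside 83.2%. The 13 WT peaks without a null peak were weak, with a median percentile of 12.7 against 60.9 for the others, and the 21 null peaks without a WT peak had a median of 19.1 against 60.2. Null peaks overlapped NT siRNA peaks in 84.0% of cases and H2A.Z siRNA peaks in 94.7%, beside 85.3% and 91.6% in the loci of all protein-coding genes. Conversely, 82.4% of NT siRNA peaks and 77.0% of H2A.Z siRNA peaks overlapped a null peak, beside 77.2% and 65.8% in the loci of all protein-coding genes. Peaks that touched or overlapped across lists, with 6 peaks past the edge of a locus that overlapped a peak inside it, formed 181 sites, of which 100 were present in all 4 lists, and 41 of those lay at promoters of the 45 genes.

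Some sites away from the promoters of the 45 genes stood out by their presence in part of the lists. A site in Parp14 (chr16:35839619-35840116) was called in null, NT siRNA and H2A.Z siRNA at 55.8, 55.2 and 57.4 and not in WT, and a site near Trim25 (chr11:89023506-89023951) likewise, at 46.5, 49.7 and 51.9. A site in Nlrc5 (chr8:94458402-94459231) was called in WT, NT siRNA and H2A.Z siRNA at 64.2, 59.2 and 74.4 and not in null. These 3 sites were picked after their ranks had been seen.

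Over sites shared by 2 lists, the median rank change was -1.23 points for null against WT (110 sites, -3 to 0.371), beside -0.839 points in the loci of all protein-coding genes, and -0.186 points for NT siRNA against null (111 sites, -2.57 to 1.73), beside 0.406 points. For H2A.Z siRNA against null it was 3.59 points (124 sites, 2.23 to 5.79), beside 5.22 points. In that comparison 32 sites ranked higher by 10 points or more and 8 lower, where 38% and 8.48% of sites in protein-coding loci did so. As at the promoters, the direction depended on list length. With equal numbers of peaks, added after the values had been seen, the median was -2.16 points (-5.21 to -0.241), beside -1.79 points. For NT siRNA against null the median was then -1.64 points (-4.88 to 0.796), beside -1.34 points.

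Genes of the same pathway outside the 45 were counted for reference. Of 55 such genes found, 48 had a promoter peak in WT, 46 in null, 47 under NT siRNA and 48 under H2A.Z siRNA, where 67.2%, 66.7%, 66.8% and 68.4% of protein-coding genes had one. All 7 genes of receptors and Janus kinases had one in every list, at a median percentile of 86.9 to 88.6. Between WT and null none of the 55 gained a call and 2 lost it, Oas1a, another oligoadenylate synthetase, and Gbp6, a guanylate-binding GTPase. Of 46 genes with a peak in both lists, 4 ranked higher in null by 10 points or more and 9 lower, where 6.52% and 11.1% of protein-coding genes did so, with a median of -1.21 points (-5.81 to 1.58). Against null, 8 of 45 ranked higher and 9 lower in NT siRNA, beside 13.5% and 12.3% of protein-coding genes, and 8 of 46 higher and 5 lower in H2A.Z siRNA, beside 18.6% and 5.22%. The 28 other response genes, of which 19 and 20 had a peak in both lists compared, had median changes against null of -7.62 points in NT siRNA, with 1 gene higher and 6 lower by 10 points or more, and of -1.17 points in H2A.Z siRNA, with 1 higher and 4 lower. The 6 other genes of antigen presentation, which include B2m, the class I genes H2-K1 and H2-D1, Tap2, Tapbp and Psmb10, had a peak in every list, and their median rank change against null was 11.2 points in NT siRNA and 13.2 points in H2A.Z siRNA, beside -0.523 and 1.40 points over protein-coding genes. B2m and Tapbp went the other way, from 95.4 and 71.1 in null to 87.4 and 53.4 in NT siRNA and 90.6 and 59.4 in H2A.Z siRNA.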

How the data were processed

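There were 3 ATAC-seq libraries of WT MEFs, 3 of Anp32e null MEFs, 1 of null MEFs with NT siRNA and 2 of null MEFs with H2A.Z siRNA, and groups were taken from the sample labels. Alignment by the authors was to mm10 with Bowtie2. Duplicates were taken out with Picard, the libraries of a group were merged and MACS2 was run in paired-end mode, so whole fragments were piled up and a Tn5 shift would move edges by a few bases only. Another replicate of the H2A.Z knockdown experiment had been left out by the authors as over-tagmented, and its siRNA group was not stated. In the deposited lists, fold at the summit is the ratio of (pileup + 1) to (local background + 1). The p-values were deposited as −log10 values, the deposited integer score is 10 times −log10 q rounded down and was used for the q threshold, and the last column gives the summit offset. Peaks had passed a q-value of 0.05. Peaks on chromosomes 1 to 19, X and Y were kept.

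Promoters were all GENCODE M21 TSSs with 1 kb on either side on GRCm38, the assembly of mm10. Peaks were shared at 1 bp of overlap. Percentiles used mean ranks for ties, and a change of 10 points or more was counted in each direction beside all protein-coding genes. Summit fragments and local background were solved from fold and −log10 p under the Poisson model of MACS2, and 100% of pileups in each list lay within 0.05 of a whole number. The most frequent local background measured the depth of a list. On simulated data the solver and the promoter counts returned the values put in. Intervals were Wilson for shares, exact Poisson for fragments, exact for ratios of heights and order statistics for medians. No column of fragments per library was used. Promoter sequences and starts came from RefSeq, GRCm38.p6, and matches were sought on both strands. Python 3.11.15, NumPy 2.4.6, SciPy 1.17.1, pandas 2.3.3 and matplotlib 3.10.9 were used.

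The genes, roles and lists were chosen with earlier results of these data known. All 45 genes are accounted for. Values per list are given for genes whose promoter call differs between lists, the 4 largest rank changes each way for null against WT and the 3 largest for each siRNA list against null, genes that share a peak and the first gene of any role without one. Genes named beyond this rule were chosen after their values had been seen. Alternatives were a −log10 q of 5 or more, equal numbers of peaks, the top 20000 peaks, promoters of 500 bp, TSSs of protein-coding transcripts, the nearest promoter peak, distinct peak pairs, rank by −log10 p, width percentiles, a change of 20 points, a reciprocal overlap of 50%, other flanks and equal depth.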

Additional observations from a re-analysis of the deposited data

How the results depend on the processing

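No paired analysis was possible because the libraries behind a list had been merged, and for the same reason no replicate could be left out. Among the single-gene rank changes of 10 points or more, the sign turned for Mx1 alone, with the nearest promoter peak, to -7.43 points for null against WT, which compares 2 different sites, and to -0.0705 points for H2A.Z siRNA against NT siRNA, where another peak is read in both lists. Smaller changes of single genes were not followed across settings. At the sites in the loci, equal numbers of peaks, tried after the data had been seen, turned the median change of H2A.Z siRNA to -2.16 points against null and -1.0 points against NT siRNA. With the top 20000 peaks, promoter peaks numbered 24, 20, 21 and 19 in WT, null, NT siRNA and H2A.Z siRNA, and locus peaks 38, 36, 31 and 35. Under this setting 5 calls were lost for null against WT and 2 for NT siRNA against null, 2 were gained and 3 lost for H2A.Z siRNA against null, and 0 were gained for H2A.Z siRNA against NT siRNA. No share over protein-coding genes was counted under this setting, so these counts cannot be set against all genes. Median rank changes were then 7.61 points for null against WT (-10.4 to 20) and -1.1 points for H2A.Z siRNA against NT siRNA (-13.2 to 18.5), and 86.1% of null locus peaks overlapped H2A.Z siRNA. With a −log10 q of 5 or more, and also with lists cut to the same length, NT siRNA gained 1 call against null and H2A.Z siRNA lost 1 against NT siRNA. With that q, 97.5% of NT siRNA locus peaks overlapped H2A.Z siRNA. With lists of equal length, 83.2% of null locus peaks overlapped H2A.Z siRNA, and the median change of H2A.Z siRNA against null was -3.75 points. With promoters of 500 bp, 0 calls were lost for NT siRNA against null and 0 gained for H2A.Z siRNA against NT siRNA. With a reciprocal overlap of 50%, 80.6% of WT locus peaks overlapped null, 76.3% of null overlapped NT siRNA, 80.9% of null overlapped H2A.Z siRNA and 81.6% of NT siRNA overlapped H2A.Z siRNA. Locus peaks in WT, null, NT siRNA and H2A.Z siRNA numbered 327, 328, 354 and 426 with flanks of 50 kb and 65, 72, 82 and 92 in gene bodies alone, which cover more and less sequence. Elsewhere the cause was not tested.

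Of 184 values of presence, call changes, median ranks, median widths and locus peaks, 147 stayed within 1.5 times their count or within their interval. At equal depth the Oas3, Mx1 and Ifit1 peaks of WT had a chance of 92.1%, 96.3% and 97.5% of passing at the depth of null. Limiting each comparison to genes whose strongest peaks overlap, which was added after the data had been seen, left every median within its interval. Counts of promoter peaks absent from the other list, also added later, were 2 for null without WT at 500 bp, 3 for NT siRNA without null at 500 bp or with equal numbers of peaks, 0 for null without NT siRNA at 500 bp, 1 for H2A.Z siRNA without null at 500 bp or with equal numbers of peaks, 2 for null without H2A.Z siRNA with equal numbers of peaks and 0 at 500 bp. Depth limits the weakest peaks most, and none of these settings stands in for replicates.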
